A study of Mus musculus with 12 samples.

Results

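The mouse mitochondrial chromosome holds genes for 13 respiratory chain proteins, 2 ribosomal RNAs (rRNAs) and 22 transfer RNAs (tRNAs), and the transcripts of these 37 genes were measured in the striatum after ischemic stroke. Members were taken by name: every row of the count files whose Ensembl ID maps to a mouse symbol starting with mt-, which gave 37 of 54532 genes. Both strands of this chromosome are transcribed into long precursors, and enzymes that cut out the tRNAs release the mRNAs and rRNAs lying between them. Most of the mRNAs then receive short poly(A) tails, which mature tRNAs lack, so a library made from polyA+ RNA captures the classes unequally. In brain, the encoded subunits of respiratory complexes I, III and IV and of the ATP synthase serve the high ATP use of neurons. Pieces of the mitochondrial chromosome have also been copied into nuclear chromosomes over evolution, and a read from such a copy can be hard to tell from a mitochondrial read.

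RNA came from striatum taken 14 or 7 days after ischemic stroke, from mice labelled cGAS-KO, STING-KO or WT. Every group had the stroke, and an uninjured group was not analysed here. CRISPR-Cas9 was used to make both knockout lines in C57BL/6J mice, and the WT mice carry the same strain name. There were 2 libraries in each of the 6 groups, 12 in all. The sources used here give neither the ages of the mice nor whether the libraries of a group came from separate mice, so p-values measure only the spread between these libraries, which may be technical.

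The names cGAS-KO, STING-KO and WT are used throughout for what the libraries are labelled, because the targeted genes went against the labels at 7 days. CPM below are counts relative to a library's total after scaling by its TMM factor (trimmed mean of M values). At 14 days Cgas stood at 4.09 and 6.15 CPM in cGAS-KO libraries, against 12.6 and 7.68 CPM in WT libraries, but at 7 days at 5.55 and 5.66 CPM in cGAS-KO libraries, against 3.25 and 2.97 CPM in WT libraries. Tmem173, the gene of STING, stood at 2.40 and 5.21 CPM in 14-day STING-KO libraries, against 22.3 and 20.8 CPM in 14-day WT libraries. At 7 days it stood at 20.9 and 23.8 CPM in STING-KO libraries, against 2.80 and 2.71 CPM in WT libraries. Levels of both genes also differed where they were not the target: Cgas stood at 4.50 and 3.58 CPM in 14-day and 11.2 and 12.6 CPM in 7-day STING-KO libraries. The 8 markers of microglia and macrophages summed to 218 and 444 CPM in 14-day STING-KO and 146 and 117 CPM in 7-day WT libraries, against 1165 to 13340 CPM in the other 8 libraries, and their part in the levels of Cgas and Tmem173 was not tested. Library totals ran from 15956242 to 22126213 counts, at which 3 counts correspond to 0.133 to 0.195 CPM. The 8 markers of striatal projection neurons were detected in every library, with sums of 517 to 4281 CPM at 14 days and 106 to 385 CPM at 7 days. The 14-day STING-KO libraries stood apart from each other: the ratio of the rRNA counts to the mRNA counts was 0.359 in replicate 1 and 0.120 in replicate 2, against 0.133 to 0.184 in the other 10 libraries.

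Mitochondrial transcripts made up 8.54 and 7.94% of the counts in 14-day cGAS-KO libraries, 4.01 and 6.16% in 14-day STING-KO libraries and 9.96 and 6.86% in 14-day WT libraries. At 7 days the shares were 3.63 and 3.56% in cGAS-KO, 3.40 and 3.13% in STING-KO and 4.02 and 4.14% in WT libraries. The 13 mRNAs gave 73.5 to 89.2% of these counts and the 2 rRNAs nearly all of the remainder. The 22 tRNAs summed to 61.0 to 214 CPM, and 3 of them (mt-Tf, mt-Td and mt-Tk, the tRNAs for phenylalanine, aspartate and lysine) had no count in any library. Another 4 did not pass the filter on low counts. These were mt-Tv, mt-Ta, mt-Ts1 and mt-Tt, for valine, alanine, serine and threonine, with at most 13, 35, 3 and 3 counts in a library. That leaves 30 members that could be tested: 13 mRNAs, 2 rRNAs and 15 tRNAs. The tRNA genes are 59 to 75 bases long, shorter than a read of 150 bases. Counts given for tRNAs may therefore come from longer RNAs that span these genes and need not be levels of mature tRNAs. Whether counting kept the strands apart is not given in the sources used here. Counts of mt-Nd6 and of the 8 tRNA genes on the minus strand may include reads from the other strand, which was not tested.

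Levels were compared between genes per length, as CPM per kilobase averaged over the 12 libraries, and the mRNAs fell into separate ranges. mt-Co1, the catalytic subunit of complex IV, stood highest at 11930 CPM per kilobase. It was followed by mt-Cytb, the cytochrome b of complex III, at 6626, and by the complex I subunits mt-Nd1 at 5236, mt-Nd2 at 4043, mt-Nd6 at 3422, mt-Nd4 at 2914 and mt-Nd5 at 2733 CPM per kilobase. The rRNAs of the small and large mitochondrial ribosome subunits, mt-Rnr1 and mt-Rnr2, stood at 3255 and 3066 CPM per kilobase. The other 6 mRNAs were all below 120 CPM per kilobase: the complex IV subunits mt-Co3 at 116 and mt-Co2 at 115, the ATP synthase subunits mt-Atp6 at 107 and mt-Atp8 at 7.70, and the complex I subunits mt-Nd3 at 73.5 and mt-Nd4l at 29.8. These 6 genes lie next to each other on the chromosome, from mt-Co2 at chrM:7013-7696 to mt-Nd4l at chrM:9877-10173, apart from tRNA genes (mm10 coordinates).

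Most of the same stretch is matched almost base for base by a run of 7 annotated pseudogenes on the minus strand of chromosome 1, chr1:24611535-24616197. The pseudogenes align to chrM:6390-11042, and 2 of 4140 aligned bases differ. As a measure of what a read can tell apart, all 150-base windows of a member were looked up in the annotated nuclear transcripts, 150 bases being the length of 1 read per the labels. An exact nuclear match was found for 99.4% of the windows of mt-Co2 and of mt-Atp6, 99.8% of mt-Co3, 97.0% of mt-Nd3 and 98.0% of mt-Nd4l. The share was 59.2% for mt-Nd4, 23.6% for mt-Co1 and 0 for the other mRNAs and rRNAs. mt-Atp8 had no match, and the genome between the annotated pseudogenes was not searched; the copies of its neighbours mt-Co2 and mt-Atp6 start 914 bases apart on both chromosomes. Pseudogenes on chromosomes 2, 4, 11 and 13 match less closely, at 90.7 to 97.6% identity. The 6 copies with the highest mean counts were Gm28437 (of mt-Co3), Gm29216 (of mt-Co1), Gm10925 (of mt-Atp6), Gm28661 (of mt-Co2), Gm28439 (of mt-Nd4) and Gm28438 (of mt-Nd3), all on chromosome 1. Gm28661 had 27.4 to 60.0 CPM in the 14-day and 56.8 to 95.6 CPM in the 7-day libraries, against 11.6 to 95.6 and 83.4 to 98.0 CPM for mt-Co2. How reads that fit both places were assigned is not given in the sources used here, and its part in the low levels of the 6 genes was not tested.

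**Figure D1:**
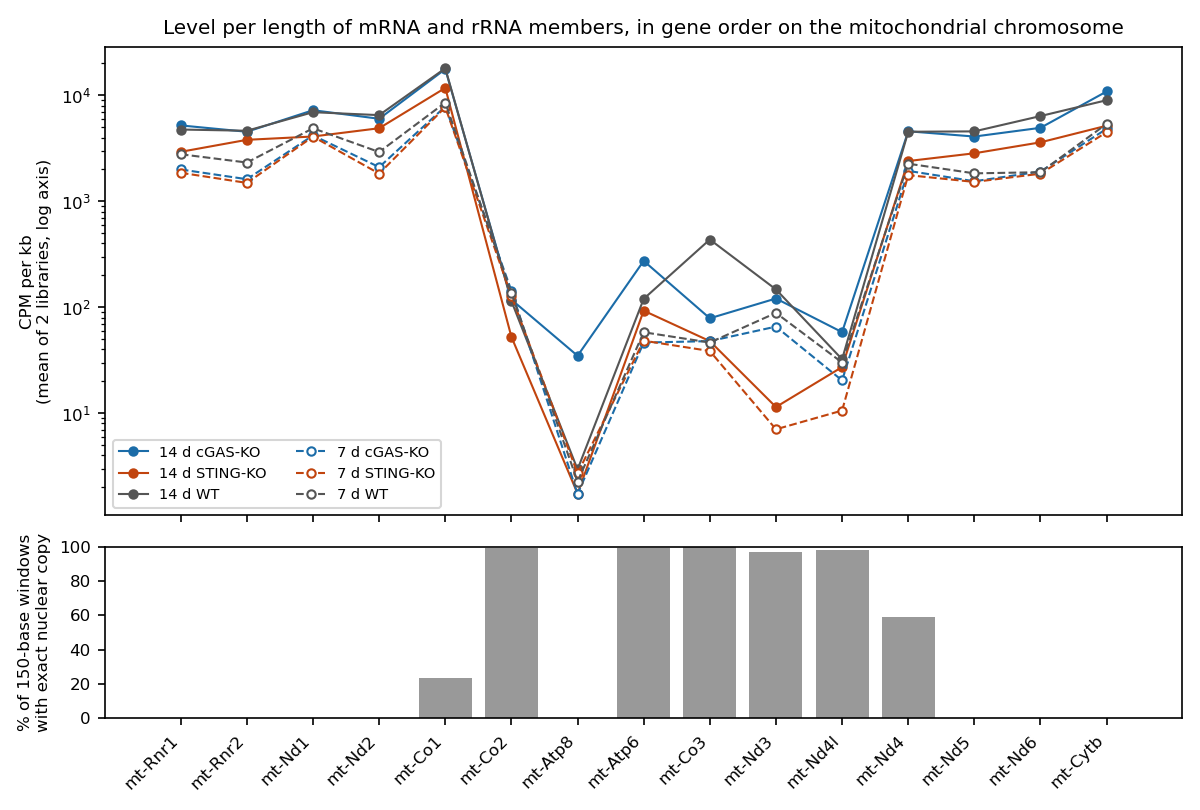
Level per length of the 2 rRNAs and 13 mRNAs in gene order on the mitochondrial chromosome (top, mean CPM per kilobase of the 2 libraries of a group on a log axis) and the percentage of the 150-base windows of each that have an exact match in an annotated nuclear transcript (bottom). The 6 genes from mt-Co2 to mt-Nd4l lie below the other 9 in every group, and 5 of these 6 have a match for 97.0% or more of their windows.

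Within that stretch, mt-Nd3 differs from its chromosome 1 copy, Gm28438, by 1 base in 345, and this base is shown because the counts were divided between the pair differently in STING-KO libraries. The base is T3C, counted from 1 at the first base of each gene, which is base 9461 of the mitochondrial chromosome. The sequences are the first 120 bases of each transcript in GENCODE M21 (mm10), with the differing base in capitals. mt-Nd3 lies at chrM:9459-9578 on the plus strand and Gm28438 at chr1:24613000-24613119 on the minus strand.
mt-Nd3: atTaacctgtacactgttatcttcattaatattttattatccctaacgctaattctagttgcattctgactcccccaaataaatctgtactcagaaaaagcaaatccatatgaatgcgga
Gm28438: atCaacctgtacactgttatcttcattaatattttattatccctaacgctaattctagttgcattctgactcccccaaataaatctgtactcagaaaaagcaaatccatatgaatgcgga
The tRNA genes on either side of mt-Nd3 are given whole because their counts were also lower in STING-KO than in WT libraries. A run of 8 A is in capitals. mt-Tg, the glycine tRNA, lies at chrM:9391-9458 and mt-Tr, the arginine tRNA, at chrM:9808-9875, both on the plus strand.
mt-Tg: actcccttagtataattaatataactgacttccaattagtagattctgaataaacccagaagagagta
mt-Tr: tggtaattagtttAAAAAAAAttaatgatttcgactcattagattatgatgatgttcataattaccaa
The run of A in mt-Tr starts at base 9821 of the mitochondrial chromosome. On chromosome 1, the starts of the copies of mt-Nd3 and mt-Nd4l are 419 bases apart, against 418 on the mitochondrial chromosome, while the spacing of the other neighbouring copies is equal. Bases 9461 and 9821 are both known to vary among laboratory mouse strains. Which bases the mice of each line carry was not tested.

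mt-Nd3 was low and its nuclear copy high in all 4 libraries labelled STING-KO. mt-Nd3, a membrane subunit of complex I, had 2.94 and 5.01 CPM in 14-day STING-KO libraries, against 47.6 and 55.0 CPM in 14-day WT libraries. At 7 days it had 2.47 and 2.44 CPM in STING-KO libraries, against 31.6 and 29.9 CPM in WT libraries. The cGAS-KO libraries had 64.7 and 19.4 CPM at 14 days and 24.9 and 20.8 CPM at 7 days. No STING-KO library overlapped any other library. Genes were tested with edgeR's quasi-likelihood test in 1 fit of all 12 libraries, with Benjamini-Hochberg adjustment over the 19822 genes tested and a threshold of 0.05; errors are SE on the log2 scale. mt-Nd3 changed by -3.69 ± 0.49 at 14 days (adjusted p = 0.000319) and by -3.65 ± 0.51 at 7 days (adjusted p = 0.000149) in STING-KO against WT. It was higher by 3.41 ± 0.49 in cGAS-KO than in STING-KO libraries at 14 days (adjusted p = 0.000586) and by 3.22 ± 0.52 at 7 days (adjusted p = 0.0475). The last call was lost without cGAS-KO replicate 1 or either STING-KO library of 7 days (adjusted p = 0.331, 0.244 and 0.232), and the first 3 held whichever library was left out.

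Gm28438 moved the other way. It had 40.4 and 39.8 CPM in 14-day STING-KO libraries and 19.9 and 26.0 CPM in 7-day STING-KO libraries, against 9.87 and 4.78 CPM in 14-day WT and 4.77 and 5.93 CPM in 7-day WT libraries. The changes were 2.46 ± 0.32 at 14 days (edgeR adjusted p = 0.00023) and 2.10 ± 0.33 at 7 days (adjusted p = 0.000248). Of the counts of the pair, mt-Nd3 received 6.79 and 11.2% in 14-day and 11.1 and 8.58% in 7-day STING-KO libraries, against 80.2 to 93.2% in the other 8 libraries. This split followed the STING-KO label at both times, which the level of Tmem173 did not. When the counts of the 7 chromosome 1 copies were added to those of their mitochondrial genes, an alternative chosen after seeing the data, mt-Nd3 changed by -0.41 ± 0.37 at 14 days (adjusted p = 0.426) and by -0.51 ± 0.38 at 7 days (adjusted p = 0.291) in STING-KO against WT. For cGAS-KO against STING-KO the values were 0.055 ± 0.37 (adjusted p = 0.922) and 0.14 ± 0.38 (adjusted p = 0.986).

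**Figure D2:**
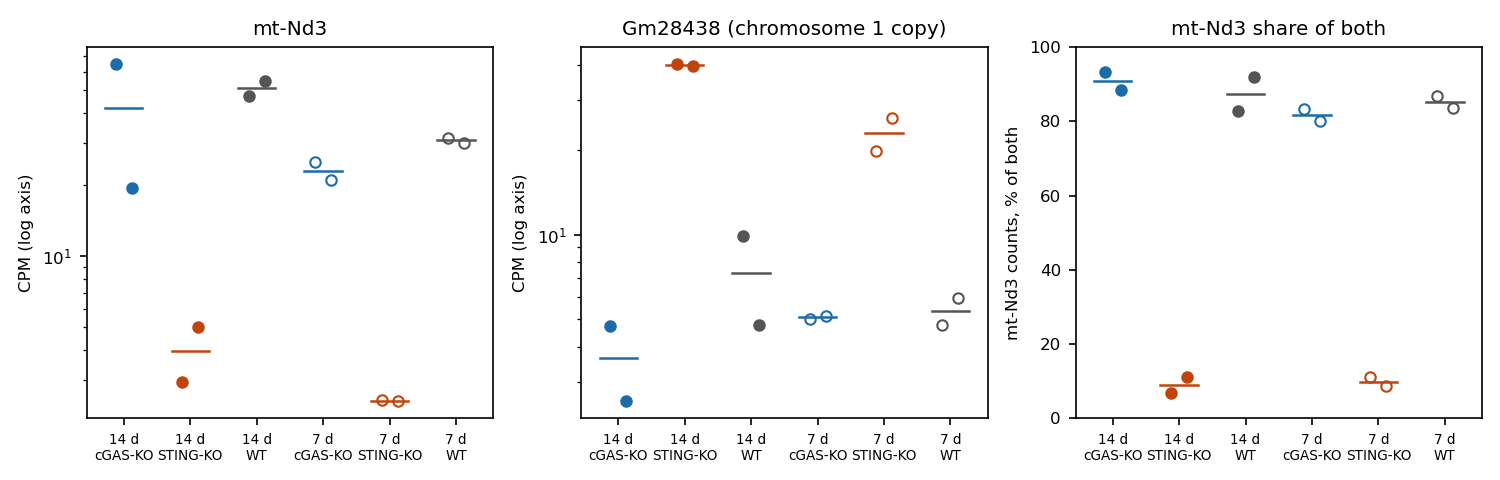
mt-Nd3 (left) and its chromosome 1 copy Gm28438 (middle) in CPM on log axes, and the percentage of the counts of both that were assigned to mt-Nd3 (right), in each library (points; filled at 14 days, open at 7 days) with group means as lines. The 4 STING-KO libraries lie at 6.79 to 11.2% in the right panel and the other 8 at 80.2 to 93.2%.

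The tRNA neighbours were nearly uncounted in the same libraries. mt-Tg had 0 counts in all 4 STING-KO libraries, against 9 and 9 counts in 14-day WT and 14 and 15 counts in 7-day WT libraries. With 3 counts per library as the limit that a count of 0 allows, mt-Tg was at least 2.72-fold lower in STING-KO than in WT libraries at 14 days and at least 4.69-fold lower at 7 days (edgeR adjusted p = 0.0286 and 0.00563). mt-Tr had 2 and 2 counts in 14-day and 0 and 1 counts in 7-day STING-KO libraries, against 70 and 40 counts in 14-day WT and 10 and 16 counts in 7-day WT libraries (adjusted p = 0.000968 and 0.0207). In cGAS-KO libraries mt-Tg had 34 and 57 counts at 14 days and 13 and 6 counts at 7 days, and it was at least 11.2-fold and 3.30-fold lower in STING-KO than in cGAS-KO libraries at these times (adjusted p = 0.00123 and 0.251, the 7-day difference not passing). The mt-Tg call against WT at 14 days was lost without any 1 of the 4 libraries (adjusted p up to 0.115), and the mt-Tr call at 7 days without either STING-KO library or WT replicate 2, up to 0.104. mt-Tr counts in cGAS-KO libraries were 58 and 17 at 14 days and 7 and 3 at 7 days. Its difference between cGAS-KO and STING-KO passed at 14 days and not at 7 days (edgeR adjusted p = 0.00628 and 0.712). That 14-day call was lost without replicate 1 of either group. Limits for a count of 0 cover counting error only. Both tRNA genes lie inside the stretch that the chromosome 1 run of copies spans. The chromosome 1 sequence between the annotated copies was not searched, so no copy counts could be added to those of mt-Tg and mt-Tr. Whether their reads were assigned there was not tested.

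Most members stood higher at 14 than at 7 days: the log2 change was positive for 26 of 30 tested members in libraries labelled cGAS-KO, 22 in STING-KO and 24 in WT. In cGAS-KO libraries 19 members rose and 1 fell, where 30.4% of all genes tested were called in either direction. In STING-KO libraries 7 rose and 2 fell (56.9% of all genes called), and in WT libraries 10 rose and 1 fell (43.9%). Over all genes, 13.4% rose and 17% fell in cGAS-KO, 27.4% rose and 29.5% fell in STING-KO, and 24.1% rose and 19.7% fell in WT. The share of members called was thus above that of all genes in cGAS-KO, at 66.7%, and below it in STING-KO and WT, at 30 and 36.7%. The median log2 change of the 30 members was 1.39 in cGAS-KO, 0.67 in STING-KO and 0.75 in WT, against -0.0071, -0.038 and 0.070 over all genes. Leaving out mt-Tg in STING-KO, where both times had 0 counts, gave 0.69 there. The 13 mRNAs summed to 69660 ± 2884 CPM at 14 days in cGAS-KO, 43570 ± 19110 in STING-KO and 69970 ± 19520 in WT, against 30510 ± 766, 29200 ± 1510 and 34730 ± 1646 CPM at 7 days (SD, n = 2 each). The ratio of the means was 2.28 in cGAS-KO and 2.02 in WT, without overlap of the libraries, and 1.49 in STING-KO, where they overlapped. In these bulk samples, fewer cells of a type and less RNA per cell cannot be told apart.

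**Figure D3:**
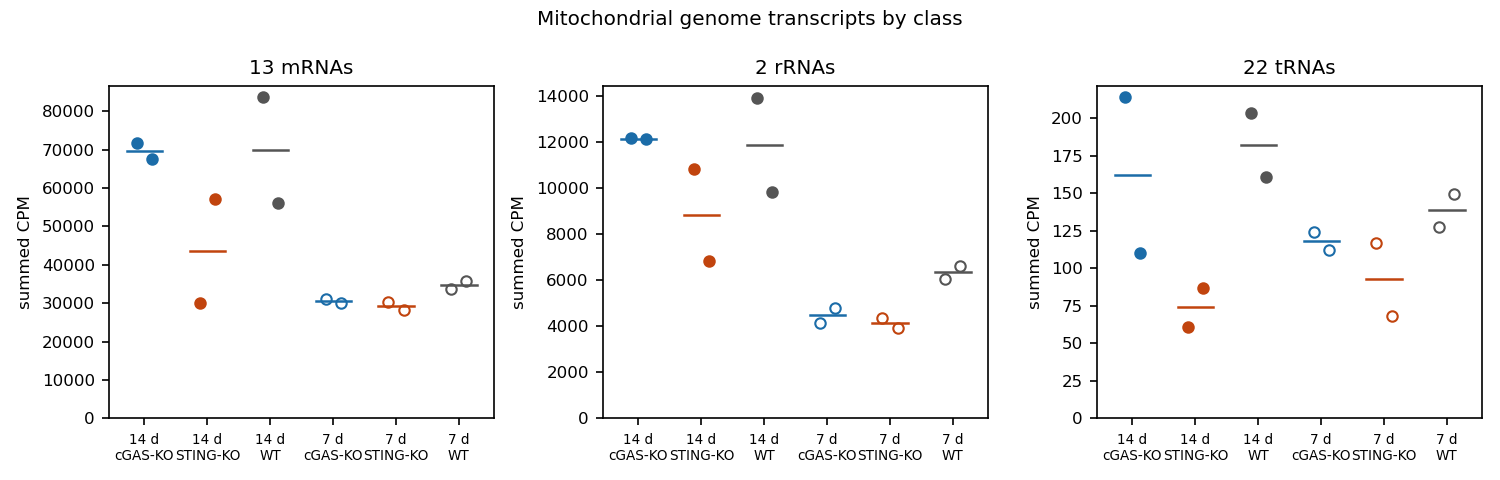
Summed CPM of the 13 mRNAs, the 2 rRNAs and the 22 tRNAs of the mitochondrial chromosome in each library (points; filled at 14 days, open at 7 days), with the mean of the 2 libraries of a group as a line; the vertical axes start at 0. In cGAS-KO and WT both 14-day points of the mRNA and rRNA panels lie above both 7-day points. In STING-KO this holds for the rRNA panel but not for the mRNA panel, and the 14-day libraries lie far apart.

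The rRNAs rose in all 3 genotypes. mt-Rnr2 had 7554 and 6786 CPM in 14-day cGAS-KO libraries, against 2378 and 2735 CPM at 7 days. In STING-KO libraries it had 7410 and 4625 CPM at 14 days, against 2515 and 2204 CPM at 7 days, and in WT libraries 8666 and 5994 CPM, against 3480 and 3866 CPM. In each genotype both 14-day libraries lay above both 7-day libraries. The changes were 1.49 ± 0.26, 1.35 ± 0.26 and 0.997 ± 0.26 in cGAS-KO, STING-KO and WT (edgeR adjusted p = 0.00169, 0.000979 and 0.00905). mt-Rnr1 rose by 1.38 ± 0.24, 0.66 ± 0.24 and 0.78 ± 0.24 in the same order (adjusted p = 0.00158, 0.0338 and 0.0209). The call of mt-Rnr1 was lost in STING-KO without replicate 1 of 14 days or either library of 7 days (adjusted p up to 0.253). In WT it was lost without replicate 1 of 14 days or either library of 7 days (up to 0.159), and that of mt-Rnr2 without replicate 1 of 14 or of 7 days (up to 0.0833).

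Of the mRNAs, the complex I subunit mt-Nd2 rose in all 3 genotypes, by 1.52 ± 0.37 in cGAS-KO, 1.42 ± 0.37 in STING-KO and 1.16 ± 0.37 in WT (edgeR adjusted p = 0.0108, 0.00674 and 0.0253). mt-Co1 had 27260 and 27380 CPM in 14-day cGAS-KO libraries, against 12240 and 11990 CPM at 7 days, and 33700 and 21950 CPM in 14-day WT libraries, against 12850 and 13570 CPM at 7 days. It rose by 1.17 ± 0.26 in cGAS-KO and 1.07 ± 0.26 in WT (adjusted p = 0.00544 and 0.00524). In STING-KO libraries mt-Co1 had 16420 and 19900 CPM at 14 days, against 12310 and 11580 CPM at 7 days, a change of 0.60 ± 0.25 that did not pass (adjusted p = 0.06). mt-Nd5, the large pump subunit of complex I, rose in cGAS-KO and WT by 1.40 ± 0.39 and 1.32 ± 0.39 (adjusted p = 0.0188 and 0.0169). In cGAS-KO mt-Nd4 rose by 1.24 ± 0.40 and mt-Cytb by 1.17 ± 0.34 (adjusted p = 0.0384 and 0.024). In WT the corresponding values were 1.002 ± 0.40 and 0.74 ± 0.34, which did not pass (adjusted p = 0.0635 and 0.0984). Each of these calls other than mt-Co1 was lost without at least 1 library, among them replicate 1 of 14 days in cGAS-KO and in WT and replicate 2 of 14 days in STING-KO (adjusted p up to 0.163). mt-Nd6, the only mRNA on the minus strand, rose by 1.76 ± 0.62 in WT (adjusted p = 0.0393, lost without any 1 of the 4 libraries, up to 0.198) and stood at 1.37 ± 0.61 in cGAS-KO (adjusted p = 0.115). mt-Nd1 was called in no genotype, with 0.79 ± 0.32 in cGAS-KO, 0.0044 ± 0.31 in STING-KO and 0.50 ± 0.31 in WT.

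In the stretch from mt-Co2 to mt-Nd4l, mt-Atp6, mt-Atp8 and mt-Nd4l rose in cGAS-KO and mt-Co2 was called in no genotype. mt-Co2 had 95.6 and 65.6 CPM in 14-day cGAS-KO libraries, against 98.0 and 97.8 CPM at 7 days, and 92.5 and 63.9 CPM in 14-day WT libraries, against 91.4 and 94.4 CPM at 7 days. In STING-KO libraries it had 11.6 and 60.2 CPM at 14 days, against 91.0 and 83.4 CPM at 7 days. Its log2 change passed in no genotype: -0.28 ± 0.50 in cGAS-KO, -1.28 ± 0.51 in STING-KO (edgeR adjusted p = 0.0512) and -0.25 ± 0.50 in WT. The STING-KO value was -2.92 without 14-day replicate 2 (adjusted p = 1.67e-05) and -0.53 without 14-day replicate 1 (adjusted p = 0.105). Per 1000 counts of mt-Co1 there were 0.709 to 3.51 counts of mt-Co2 in the 14-day libraries, against 6.96 to 8.16 in the 7-day libraries. With the copies added, mt-Co2 fell in STING-KO, by 1.14 (adjusted p = 0.0156), the sums being 39.0 and 93.8 CPM at 14 days, against 152 and 140 CPM at 7 days. mt-Atp6 rose in cGAS-KO, with 302 and 70.7 CPM at 14 days, against 31.0 and 32.2 CPM at 7 days (2.56 ± 0.74, adjusted p = 0.0242). The call was lost without replicate 1 of 14 days (1.14, adjusted p = 0.307) or either library of 7 days (up to 0.151). mt-Atp8 had 313 and 6 counts in the 14-day cGAS-KO libraries and 1 to 14 counts in the other 10 libraries. Its call in cGAS-KO, where the libraries of both times overlapped (4.29 ± 1.35, adjusted p = 0.0342), turned to -0.36 without replicate 1 (adjusted p = 0.857) and was lost without either library of 7 days (up to 0.186). mt-Nd4l rose by 1.51 ± 0.49 in cGAS-KO (adjusted p = 0.0405), was lost without any 1 of the 4 libraries (up to 0.208) and stood at 1.22 ± 0.58 with the copies added (adjusted p = 0.137).

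On its own counts, mt-Co3 was called in WT and in neither knockout. It had 422 and 262 CPM in 14-day WT libraries, against 39.3 and 33.5 CPM at 7 days, a change of 3.23 ± 0.37 (edgeR adjusted p = 6.08e-05). In cGAS-KO it had 87.4 and 36.0 CPM at 14 days, against 40.0 and 35.1 CPM at 7 days (0.72 ± 0.35, adjusted p = 0.144), and in STING-KO 32.2 and 42.9 CPM, against 31.0 and 29.6 CPM (0.31 ± 0.35, adjusted p = 0.478). Its copy Gm28437 varied widely between the 14-day libraries: 244 and 27.6 CPM in cGAS-KO, 339 and 82.7 CPM in STING-KO and 175 and 28.6 CPM in WT. With the copy added, mt-Co3 rose by 2.70 ± 0.69 in WT (edgeR adjusted p = 0.00873). The sums of both in STING-KO were 371.2 and 125.5 CPM at 14 days, against 57.9 and 61.1 CPM at 7 days, without overlap. For cGAS-KO the sums were 331.7 and 63.5 CPM, against 85.2 and 139.3 CPM, and overlapped. The rise seen in WT alone thus applies to the counts of mt-Co3 without its copy.

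Among the tRNA genes, to whose counts the limits given above apply, mt-Tn, for asparagine, was the member whose counts fell in every genotype. It had 11.9 and 12.6 CPM in 14-day cGAS-KO libraries, against 31.7 and 28.6 CPM at 7 days. In STING-KO the values were 11.2 and 6.58 CPM, against 32.6 and 20.5 CPM, and in WT 7.19 and 6.04 CPM, against 20.6 and 24.8 CPM. The changes were -1.30 ± 0.26, -1.58 ± 0.27 and -1.78 ± 0.28 (edgeR adjusted p = 0.00357, 0.000442 and 0.000387). mt-Tc, the cysteine tRNA encoded next to it on the same strand, fell by 1.54 in STING-KO (adjusted p = 0.000889) and stood at 0.21 ± 0.27 in cGAS-KO and -0.13 ± 0.27 in WT. The leucine tRNA mt-Tl1, which lies just after mt-Rnr2, rose by 1.68 ± 0.27 in cGAS-KO and 1.42 ± 0.27 in STING-KO (adjusted p = 0.000969 and 0.00085) and stood at 0.34 ± 0.28 in WT. The tryptophan tRNA mt-Tw rose in cGAS-KO and WT, by 2.37 ± 0.56 and 1.62 ± 0.50 (adjusted p = 0.00805 and 0.0208), as did the serine tRNA mt-Ts2, by 1.92 ± 0.55 and 2.40 ± 0.51 (adjusted p = 0.0206 and 0.0028). The glutamate tRNA mt-Te rose in cGAS-KO and STING-KO, by 2.34 ± 0.65 and 1.98 ± 0.69 (adjusted p = 0.0206 and 0.0301). The remaining calls were mt-Tg, mt-Tr, mt-Ty, mt-Ti and mt-Tq in cGAS-KO, mt-Ti and mt-Tm in STING-KO and mt-Tr in WT, all higher at 14 days. In cGAS-KO libraries mt-Ti had 20 and 15 counts at 14 days, against 2 and 0 counts at 7 days. mt-Tq had 55 and 3 counts at 14 days, against 1 and 2 counts at 7 days, and stood at 0.70 without 14-day replicate 1 (adjusted p = 0.765). These tRNAs read glycine, arginine, tyrosine, isoleucine, glutamine and methionine codons.

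Whichever library was left out, 6 of the 20 calls in cGAS-KO held (mt-Rnr1, mt-Rnr2, mt-Co1, mt-Tl1, mt-Tn and mt-Ty), as did 4 of 9 in STING-KO (mt-Rnr2, mt-Tl1, mt-Tn and mt-Tc) and 4 of 11 in WT (mt-Co1, mt-Co3, mt-Tn and mt-Ts2). In cGAS-KO 13 calls were lost without replicate 1 of 14 days, 5 without replicate 2 of 14 days, and 11 and 12 without replicates 1 and 2 of 7 days. In STING-KO 2 and 3 calls were lost without replicates 1 and 2 of 14 days and 4 without either library of 7 days. In WT 7 and 1 calls were lost without replicates 1 and 2 of 14 days, and 7 and 4 without those of 7 days. In STING-KO mt-Te turned to -0.29 without replicate 2 of 14 days (edgeR adjusted p = 0.525), and mt-Nd2 stood at 0.51 (adjusted p = 0.0928).

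**Figure D4:**
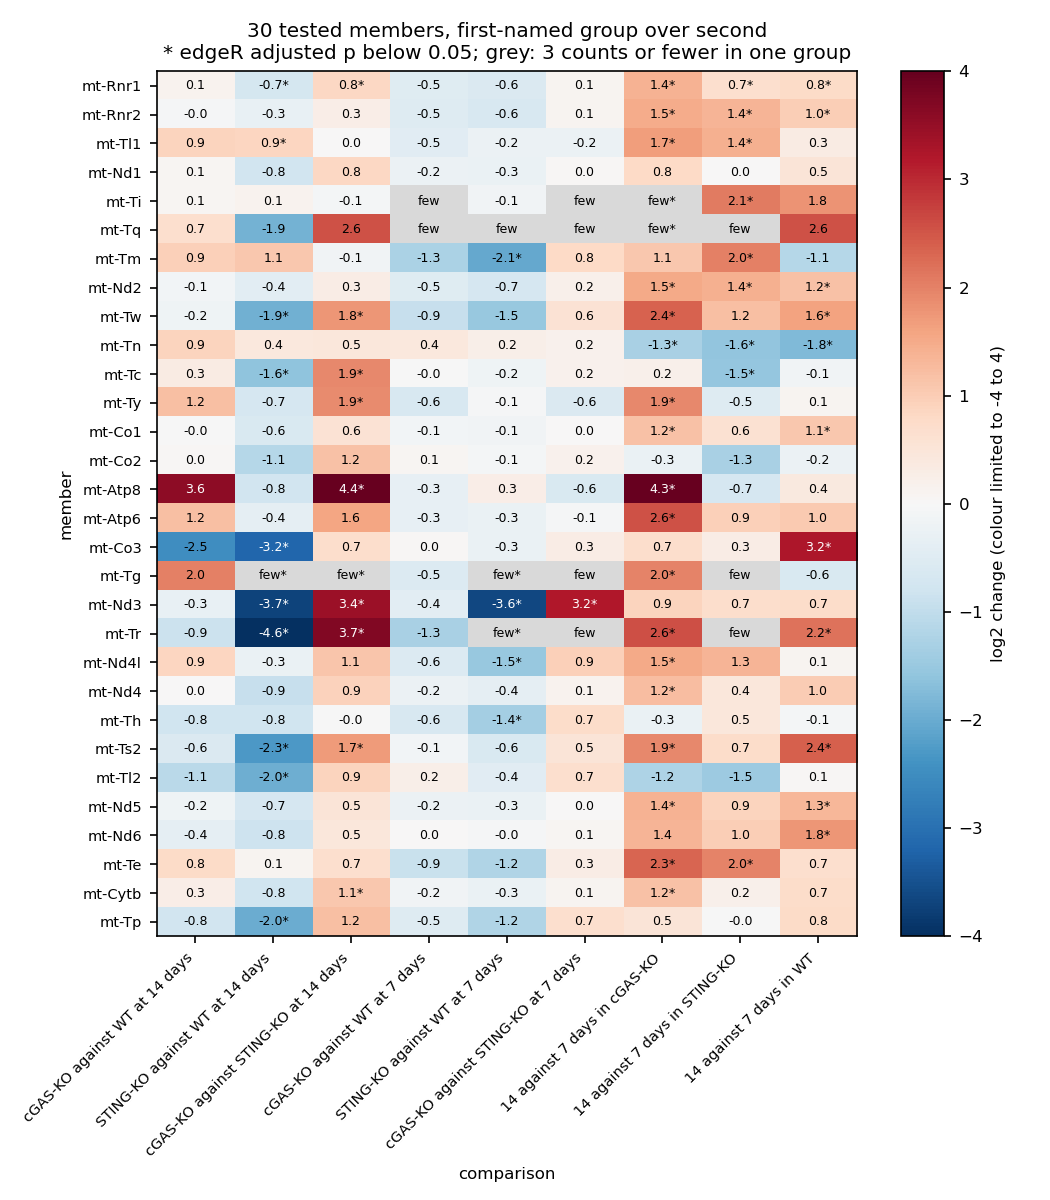
Log2 change of the 30 tested members, in gene order, in 9 comparisons; the first-named group is over the second, red is higher and blue lower, and the colour scale stops at 4 in either direction. Stars mark an edgeR adjusted p below 0.05, and grey cells hold comparisons in which one group had 3 counts or fewer in all. The columns of 14 against 7 days are mostly red, with mt-Tn blue in each.

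Among nuclear genes that work with these transcripts, more respiratory chain subunits and mitochondrial ribosomal proteins fell than rose at 14 days. Of 83 tested nuclear-encoded subunits of the respiratory chain, 1 rose and 27 fell in cGAS-KO, 11 rose and 39 fell in STING-KO and 2 rose and 49 fell in WT. The medians of the list were -0.36, -0.37 and -0.66. Ndufb8, an accessory subunit of complex I, fell by 1.49 in cGAS-KO, 2.27 in STING-KO and 2.08 in WT (edgeR adjusted p = 0.000291, 4.02e-06 and 1.73e-05). Cox6b1, a nuclear subunit of complex IV, fell by 1.93 in STING-KO (adjusted p = 1.3e-05), and Cox5a, another, by 1.11 in WT (adjusted p = 5.1e-05). Of 77 tested proteins of the mitochondrial ribosome, 0 rose and 20 fell in cGAS-KO, 8 rose and 33 fell in STING-KO and 2 rose and 33 fell in WT, with medians of -0.35, -0.40 and -0.46. Of all genes tested, 17% fell in cGAS-KO, 29.5% in STING-KO and 19.7% in WT, in each case a smaller share than in either list, and 13.4, 27.4 and 24.1% rose, a larger share than in either. Mrpl12 fell by 1.23, 2.15 and 1.52 in the 3 genotypes (adjusted p = 0.000611, 4.94e-06 and 9.6e-05). Of 20 genes for upkeep and transcription of mitochondrial DNA, 2 rose and 2 fell in cGAS-KO, 8 rose and 2 fell in STING-KO and 6 rose and 1 fell in WT, with medians of 0.076, 0.31 and 0.13. Mterf3, a regulator of mitochondrial transcription, rose by 0.64 ± 0.18, 1.36 ± 0.18 and 1.02 ± 0.18 (adjusted p = 0.017, 5.48e-05 and 0.000711). Dna2, a nuclease and helicase of mitochondrial and nuclear DNA, was lower in both knockouts and higher in WT at 14 days, at -1.05 in cGAS-KO, -2.43 in STING-KO and 2.02 in WT (adjusted p = 0.00604, 1.19e-05 and 0.000144). Polrmt, the mitochondrial RNA polymerase, rose in cGAS-KO by 0.62 ± 0.21 (adjusted p = 0.0466). Of 22 genes of mitochondrial RNA processing, stability and decay, 2 rose and 1 fell in cGAS-KO, 9 rose and 3 fell in STING-KO and 1 rose and 1 fell in WT, with medians of 0.077, 0.31 and -0.12. Lrpprc, which stabilises mitochondrial mRNAs, rose by 0.53 ± 0.15 in cGAS-KO and 1.40 ± 0.16 in STING-KO (edgeR adjusted p = 0.0242 and 1.72e-05). Its mean in WT did not rise, at 71.0 CPM at 14 days, against 82.6 CPM at 7 days. Rexo2, of the same list, fell by 0.51 in cGAS-KO (adjusted p = 0.019).

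Cell type markers moved between the same groups. The 8 markers of striatal projection neurons summed to 1173 and 2042 CPM in 14-day cGAS-KO libraries, against 112 and 351 CPM at 7 days. In STING-KO they summed to 4060 and 4281 CPM, against 152 and 385 CPM, and in WT to 661 and 517 CPM, against 119 and 106 CPM. Of these 8 markers, 7, 8 and 8 rose. The 8 markers of microglia and macrophages summed to 1165 and 1200 CPM in 14-day cGAS-KO libraries, against 5722 and 5419 CPM at 7 days. In STING-KO they summed to 218 and 444 CPM, against 13340 and 11070 CPM, and in WT to 1962 and 2404 CPM, against 146 and 117 CPM. Of these, 5 and 8 fell in cGAS-KO and STING-KO and 8 rose in WT. The 8 general neuron markers summed to 2032 and 2824 CPM in 14-day WT libraries, against 6130 and 6629 CPM at 7 days, and 7 of them fell. In cGAS-KO they summed to 2210 and 1904 CPM, against 1275 and 1695 CPM, with 0 calls, and in STING-KO to 4239 and 3729 CPM, against 1978 and 1313 CPM, where 5 rose. The 6 choroid plexus markers summed to 92.0 to 698 CPM in 14-day knockout libraries, against 2535 to 4559 CPM in 7-day knockout libraries. WT had 54.7 and 390 CPM, against 134 and 76.0 CPM, with 0 calls. The 6 oligodendrocyte markers summed to 26920 and 30710 CPM in 14-day cGAS-KO libraries, against 11040 and 13040 CPM at 7 days, and 3 rose. WT had 20830 and 19710 CPM, against 7442 and 5098 CPM, and 6 rose. STING-KO had 8308 and 8467 CPM, against 13060 and 17520 CPM, and 4 fell. No marker of these lists was at 0 in any library, and their part in the members' changes was not tested.

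At 14 days, no member passed the edgeR threshold between cGAS-KO and WT libraries. There were 0 calls among 30 members, where 0.0303% of all genes were called. An unadjusted edgeR p below 0.05 was found for 6 of 30 members, against 2185 of 19822 genes. The DESeq2 Wald test called 1 member, mt-Co3. mt-Co3 had 87.4 and 36.0 CPM in cGAS-KO libraries, against 422 and 262 CPM in WT libraries, a difference of -2.47 ± 0.36 without overlap (edgeR adjusted p = 0.0566). Under the alternatives its adjusted p ran from 6.95e-09 (DESeq2) to 0.543 (copies added, -1.17 ± 0.66), and it was 0.00548 without cGAS-KO replicate 1. The 13 mRNAs summed to 69660 ± 2884 CPM in cGAS-KO and 69970 ± 19520 CPM in WT libraries, and the rRNAs to 12140 ± 14.9 and 11870 ± 2886 CPM (SD, n = 2 each). mt-Atp6 and mt-Atp8 stood at 1.19 ± 0.70 and 3.58 ± 1.23 (adjusted p = 0.565 and 0.352), and both turned negative without cGAS-KO replicate 1 (-0.22 and -1.06).

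The libraries labelled STING-KO had less of 10 members than WT at 14 days and more of 1, of 30 tested. In either direction 33.9% of all genes were called, close to the 36.7% among members. By direction the shares differed: 33.3% of the members were lower and 3.33% higher, against 17.4 and 16.5% of all genes. The median over the members was -0.79, against -0.035 over all genes. Apart from mt-Nd3, mt-Tg and mt-Tr, the fall was largest in mt-Co3, with 32.2 and 42.9 CPM in STING-KO libraries, against 422 and 262 CPM in WT libraries (-3.19 ± 0.37, edgeR adjusted p = 0.000164). With the copy added it was -0.84 ± 0.65 (adjusted p = 0.351), Gm28437 having 339 and 82.7 CPM in STING-KO libraries, against 175 and 28.6 CPM in WT libraries. mt-Tc had 8.22 and 7.81 CPM in STING-KO libraries, against 23.5 and 25.0 CPM in WT libraries (-1.60 ± 0.30, adjusted p = 0.00181). mt-Ts2 had 0.84 and 0.716 CPM, against 4.09 and 3.62 CPM (-2.29 ± 0.52, adjusted p = 0.00602). mt-Tw, the leucine tRNA mt-Tl2 and the proline tRNA mt-Tp also fell, by 1.93, 1.96 and 1.97 (adjusted p = 0.0159, 0.0291 and 0.0231), while mt-Tl1 rose by 0.85 ± 0.26 (adjusted p = 0.0245). mt-Rnr1 fell by 0.70 (adjusted p = 0.0413), with 3392 and 2208 CPM in STING-KO libraries, against 5249 and 3839 CPM in WT libraries.

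The long mRNAs stood lower in STING-KO by values that did not pass: -0.76 ± 0.32 for mt-Nd1, -0.92 ± 0.40 for mt-Nd4, -0.62 ± 0.25 for mt-Co1 and -0.80 ± 0.34 for mt-Cytb (edgeR adjusted p = 0.0837, 0.101, 0.0825 and 0.0919). The STING-KO replicates disagreed here: mt-Nd1 had 2429 and 5399 CPM, mt-Nd6 507 and 3232 CPM and mt-Cytb 3522 and 8302 CPM, against 7678 and 5596, 4088 and 2531, and 12380 and 8208 CPM in WT libraries. Without STING-KO replicate 2, 17 members were called, and mt-Nd1, mt-Nd4, mt-Co1 and mt-Cytb were among them (adjusted p = 0.00106, 0.000278, 0.0438 and 0.00126). Without STING-KO replicate 1 there were 8 calls, and without WT replicate 1 there were 5. The calls that held whichever library was left out were mt-Tc, mt-Co3, mt-Nd3, mt-Tr and mt-Ts2. mt-Rnr1 was lost without STING-KO replicate 2 or WT replicate 1 (adjusted p up to 0.233), mt-Tw without STING-KO replicate 1 or WT replicate 1 (up to 0.129), mt-Tl1 without STING-KO replicate 1 or either WT library (up to 0.129), mt-Tp without either STING-KO library or WT replicate 1 (up to 0.176), and mt-Tl2 without any 1 of the 4 (up to 0.173).

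Other gene groups differed between the same libraries. Of the 83 nuclear subunits of the respiratory chain 26 rose and 4 fell in STING-KO against WT at 14 days, of the 77 mitochondrial ribosomal proteins 11 rose and 1 fell, and of the 22 genes of mitochondrial RNA processing 6 rose and 0 fell, where 16.5% of all genes rose and 17.4% fell. Lrpprc, of the RNA processing list, was among those that rose (0.84 ± 0.15, edgeR adjusted p = 0.0017). The share of mitochondrial ribosomal proteins that rose was below that of all genes. Of the 20 genes for upkeep and transcription of mitochondrial DNA, 4 rose and 1 fell. The microglia and macrophage markers summed to 218 and 444 CPM in STING-KO libraries, against 1962 and 2404 CPM in WT libraries, and all 8 fell. The oligodendrocyte markers summed to 8308 and 8467 CPM, against 20830 and 19710 CPM (6 of 6 fell). Those of striatal projection neurons summed to 4060 and 4281 CPM, against 661 and 517 CPM (8 of 8 rose). No marker of these lists was at 0, and their part in the members' values was not tested.

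Between the knockouts at 14 days, 10 of 30 members were higher in cGAS-KO than in STING-KO libraries and none lower, where 35.9% of all genes were called, 18.2% of all genes being higher. The STING-KO libraries also enter the comparison with WT above. Besides mt-Nd3, mt-Tg and mt-Tr, these were mt-Rnr1 (0.83 ± 0.24, edgeR adjusted p = 0.0189), mt-Cytb (1.07 ± 0.34, adjusted p = 0.0292), mt-Atp8 and the tRNAs mt-Tw, mt-Tc, mt-Ty and mt-Ts2. mt-Ty had 6.81 and 11.4 CPM in cGAS-KO libraries, against 2.58 and 2.34 CPM in STING-KO libraries (1.88 ± 0.41, adjusted p = 0.00464), and mt-Tc 37.6 and 22.8 CPM, against 8.22 and 7.81 CPM (1.91 ± 0.30, adjusted p = 0.000713). mt-Nd3, mt-Tg, mt-Tc and mt-Ty held whichever library was left out. Of the other 6 calls, leaving out replicates 1 and 2 of cGAS-KO lost 5 and 2, and leaving out those of STING-KO lost 5 and 3 (adjusted p up to 0.882). mt-Atp8 (4.35 ± 1.40, adjusted p = 0.0324) turned to -0.28 without cGAS-KO replicate 1 (adjusted p = 0.882). Between these groups the marker sums stood at 1165 and 1200 CPM in cGAS-KO, against 218 and 444 CPM in STING-KO libraries for microglia and macrophages (8 of 8 higher), and at 26920 and 30710 CPM, against 8308 and 8467 CPM for oligodendrocytes (6 of 6 higher). Those of striatal projection neurons were 1173 and 2042 CPM, against 4060 and 4281 CPM (3 of 8 lower). No marker of these lists was at 0, and their part was not tested.

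**Figure D5:**
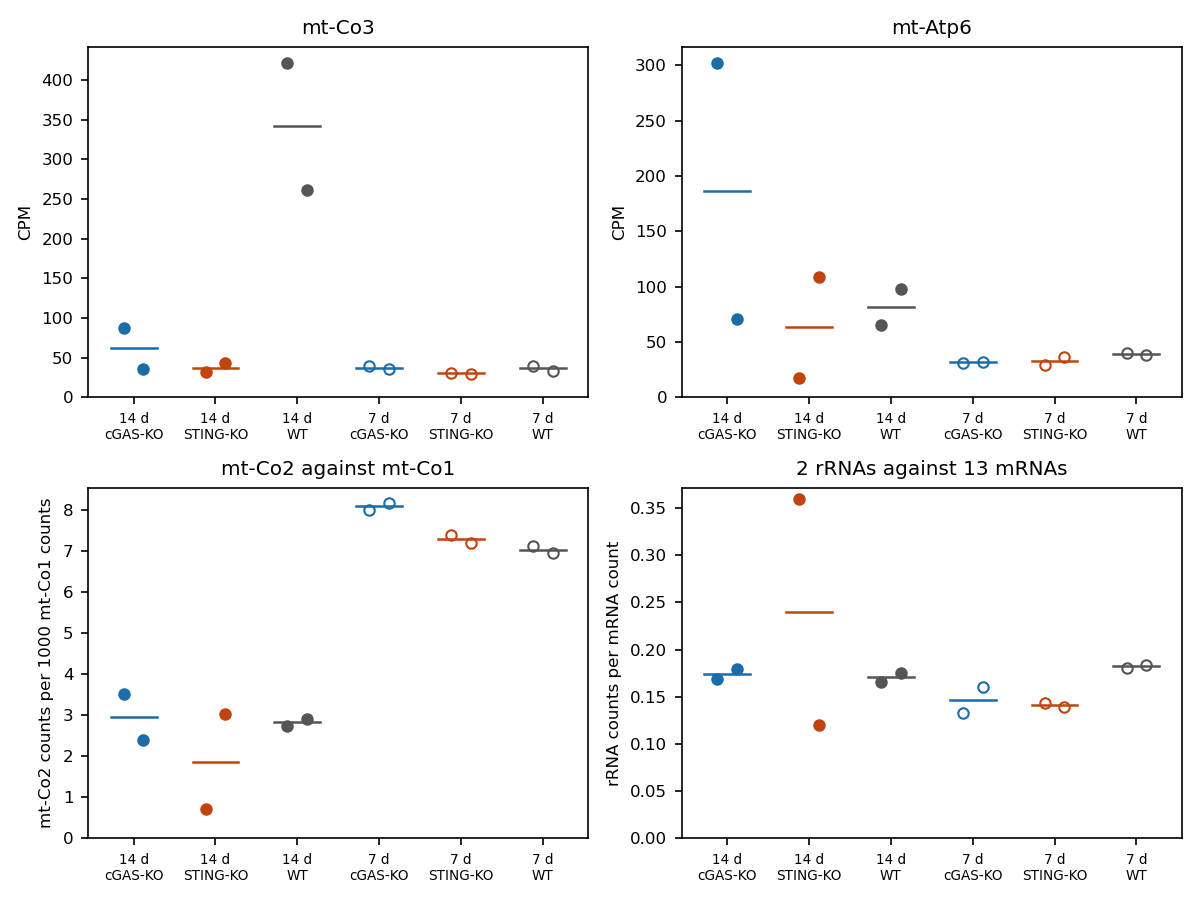
mt-Co3 and mt-Atp6 in CPM (top), mt-Co2 counts per 1000 mt-Co1 counts (bottom left) and rRNA counts per mRNA count (bottom right) in each library (points; filled at 14 days, open at 7 days), with group means as lines and axes from 0. mt-Co3 is high in both 14-day WT libraries, mt-Atp6 in 1 cGAS-KO library of 14 days, and the mt-Co2 ratio is 3.51 or less in each 14-day library and 6.96 or more in each 7-day library.

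At 7 days, no member passed between cGAS-KO and WT libraries: edgeR made 0 calls of 30, where 50.3% of all genes were called. The median log2 change over the members was -0.45, with 25 of 30 negative, against 0.042 over all genes. The 13 mRNAs summed to 30510 ± 766 CPM in cGAS-KO and 34730 ± 1646 CPM in WT libraries, without overlap (SD, n = 2 each). An unadjusted edgeR p below 0.05 was found for 1 of 30 members, mt-Tm (-1.26 ± 0.52, adjusted p = 0.0641), against 11109 of 19822 genes. The DESeq2 Wald test called 2 members, mt-Rnr1 and mt-Rnr2. mt-Rnr1 had 1753 and 2062 CPM in cGAS-KO libraries, against 2567 and 2743 CPM in WT libraries (-0.48 ± 0.24, edgeR adjusted p = 0.118), and mt-Rnr2 2378 and 2735 CPM, against 3480 and 3866 CPM (-0.52 ± 0.26, adjusted p = 0.115). These groups did not overlap. In a fit without the 14-day STING-KO libraries, chosen after seeing the data, both passed (adjusted p = 0.0349 and 0.0343), and 5 members were called.

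In STING-KO libraries of 7 days, 6 of 30 members were lower than in WT and none higher, where 48.9% of all genes were called, 22.6% of all genes being lower, against 20% of the members. Along with mt-Nd3, mt-Tg and mt-Tr, these were mt-Nd4l, mt-Tm and mt-Th. mt-Nd4l, a small membrane subunit of complex I whose gene follows mt-Tr, had 3.27 and 3.02 CPM in STING-KO libraries, against 8.92 and 8.95 CPM in WT libraries (-1.51 ± 0.55, edgeR adjusted p = 0.0425). With its chromosome 1 copy added the value was -0.99 ± 0.61 (adjusted p = 0.199). mt-Tm, the methionine tRNA, had 2 and 6 counts, against 18 and 17 counts in WT libraries (-2.06 ± 0.59, adjusted p = 0.0124), and mt-Th, the histidine tRNA, 10 and 13 counts, against 28 and 33 counts (-1.36 ± 0.49, adjusted p = 0.0372). The rRNAs stood at -0.58 ± 0.24 for mt-Rnr1 and -0.64 ± 0.26 for mt-Rnr2 (adjusted p = 0.0632 and 0.0607) and passed in the fit without the 14-day STING-KO libraries (adjusted p = 0.0164 and 0.0157). mt-Nd3 and mt-Tg held whichever library was left out. mt-Nd4l and mt-Th were lost without any 1 of the 4 libraries (adjusted p up to 0.151 and 0.144) and mt-Tm without STING-KO replicate 1 or WT replicate 1 (up to 0.101). mt-Nd2 stood at -0.68 ± 0.37 (adjusted p = 0.15), and the other long mRNAs between -0.36 for mt-Nd4 and -0.047 for mt-Nd6 on the log2 scale. Over the members, the median log2 change was -0.40 in STING-KO against WT, with 28 of 30 negative, against 0.029 over all genes. The 13 mRNAs summed to 29200 ± 1510 CPM in STING-KO and 34730 ± 1646 CPM in WT libraries, without overlap (SD, n = 2 each). Both knockouts were compared with the same WT libraries. The microglia and macrophage markers summed to 5722 and 5419 CPM in cGAS-KO and 13340 and 11070 CPM in STING-KO libraries, against 146 and 117 CPM in WT libraries (8 of 8 higher in each knockout). Cytosolic ribosomal proteins were higher in both, 72 and 73 of 81. The general neuron markers summed to 1275 and 1695 CPM in cGAS-KO and 1978 and 1313 CPM in STING-KO libraries, against 6130 and 6629 CPM in WT libraries (8 of 8 lower in each knockout). Those of choroid plexus summed to 2535 and 4559 CPM and to 4525 and 2798 CPM, against 134 and 76.0 CPM (6 of 6 higher in each). No defining marker of microglia and macrophages was at 0 in any library, and the part of these groups in the members' values was not tested.

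Between the knockouts at 7 days, mt-Nd3 was the 1 member called, where 0.161% of all genes were called, 0.0858% higher and 0.0757% lower. The median log2 difference over the members was 0.16, against 0.00079 over all genes. The other mRNAs and the rRNAs stood between -0.60 for mt-Atp8 and 0.95 for mt-Nd4l.

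The difference of a knockout from WT was set at 14 days against 7 days in the same fit. For cGAS-KO 5 of 30 members were called, 4 upward and 1 downward, where 36.7% of all genes were called, 15.7% upward and 21% downward. For STING-KO 2 were called upward and 2 downward (51.9% of all genes, 24.3% upward and 27.6% downward). Both sets of values share the WT libraries. mt-Co3 was called in both, at -2.51 ± 0.49 for cGAS-KO and -2.92 ± 0.50 for STING-KO (edgeR adjusted p = 0.00226 and 0.000535), and both held whichever library was left out. With the copies added they were -1.89 ± 0.93 and -0.64 ± 0.93 (adjusted p = 0.139 and 0.592). mt-Tm stood at 2.20 ± 0.73 and 3.14 ± 0.80 (adjusted p = 0.0337 and 0.00594) and mt-Tl1 at 1.34 ± 0.39 and 1.08 ± 0.39 (adjusted p = 0.0188 and 0.0361). Of these 4 values, that of mt-Tm for STING-KO held whichever library was left out; the others were lost without 4 to 6 of the 8 libraries, each of them without 14-day WT replicate 1 and without 7-day WT replicate 2 (adjusted p up to 0.139).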

How the data were processed

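Striatal polyA+ RNA was sequenced in 12 libraries, and the deposited values are raw counts of reads per gene, with no normalization, as the authors' files give them. The authors aligned reads with HISAT2 to mm10 and counted them with featureCounts, per the submitters' processing notes; versions, strand setting and treatment of reads with several matches are not given in the sources used here. Gene symbols and positions came from GENCODE M21 (GRCm38, which is mm10).

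Genes were kept with edgeR 4.0.16 filterByExpr (minimum count 10, minimum total 15), scaled by TMM and fitted with the quasi-likelihood test in 1 fit of the 6 groups (6 residual degrees of freedom), with Benjamini-Hochberg adjustment over 19822 genes and a threshold of 0.05. The SE is the log2 change divided by the square root of F. Nuclear copies were annotated nuclear transcripts matching a member over at least 200 bases at 90% identity or more (BLAST 2.17.0). Libraries held 15956242 to 22126213 counts. Limits for a count of 0 (3 counts per library) cover counting error only.

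The text names every mRNA and rRNA member, every tRNA member that could be tested, the 6 nuclear copies with the highest mean count and up to 4 members of each gene list with the smallest adjusted p. The members and gene lists were chosen with earlier results of these data known. Alternatives were DESeq2 1.42.0 (its size factors and its Wald test), library totals without TMM factors, scaling without mitochondrial genes, the legacy quasi-likelihood form, 2 other filters, a replicate block, only the libraries compared, and leaving out each library. After the data were seen, 3 were added: chromosome 1 copies added to their members, and fits without the 14-day STING-KO libraries, alone or with the 7-day WT libraries. R 4.3.3, Python 3.11.15 and matplotlib 3.10.9 were used.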

Additional observations from a re-analysis of the deposited data

Results flagged for a closer look

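The difference of a knockout from WT itself differed between 14 and 7 days for 9 values, each tested as the difference of the 2 log2 differences in the edgeR fit of all 12 libraries. The calls were 16.7% of the members for cGAS-KO and 13.3% for STING-KO, against 36.7 and 51.9% of all genes tested. For cGAS-KO these were mt-Co3 at -2.51 ± 0.49 (adjusted p = 0.00226), mt-Tl1 at 1.34 ± 0.39 (adjusted p = 0.0188), mt-Ty at 1.82 ± 0.58 (adjusted p = 0.0286), mt-Tm at 2.20 ± 0.73 (adjusted p = 0.0337) and mt-Tg at 2.57 ± 0.84 (adjusted p = 0.0375). For STING-KO they were mt-Co3 at -2.92 ± 0.50 (adjusted p = 0.000535), mt-Tm at 3.14 ± 0.80 (adjusted p = 0.00594), mt-Tc at -1.42 ± 0.40 (adjusted p = 0.0111) and mt-Tl1 at 1.08 ± 0.39 (adjusted p = 0.0361). Of these, mt-Co3 in both and mt-Tm for STING-KO passed whichever library was left out. With the chromosome 1 copy added, mt-Co3 passed in neither, at -1.89 for cGAS-KO and -0.64 for STING-KO (adjusted p = 0.139 and 0.592). mt-Tc was lost without STING-KO replicate 1 or WT replicate 1 of 7 days (adjusted p up to 0.059), mt-Ty without cGAS-KO replicate 2 or WT replicate 2 of 14 days and without cGAS-KO replicate 1 or WT replicate 2 of 7 days (up to 0.183), and mt-Tg without 6 of the 8 libraries, cGAS-KO replicate 1 of both times being the exceptions (up to 0.111). The targeted genes went against the labels at 7 days, so each value compares libraries as labelled.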

How the results depend on the processing

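Counts of members called by edgeR were within 1.5 times of those reported under the other settings, except as follows. For cGAS-KO against WT at 14 days (0 calls) there was 1 with a replicate block and 1 with DESeq2, and for the same pair at 7 days (0 calls) 1 with scaling without mitochondrial genes, 1 with no filter, 2 with DESeq2, 5 without the 14-day STING-KO libraries and 7 with only the libraries compared. STING-KO against WT at 7 days (6 calls) had 10 without the 14-day STING-KO libraries and 12 with only the libraries compared. cGAS-KO against STING-KO had 6 calls at 14 days (10 reported) with only the libraries compared; at 7 days (1 reported) it had 0 with the legacy form, no filter, only the libraries compared, copies added, or without the 14-day STING-KO libraries, alone or with 7-day WT, and 2 with DESeq2. For 14 against 7 days there were 13 calls in cGAS-KO (20 reported) with no filter and 17 in WT (11 reported) with only the libraries compared. The change of the cGAS-KO difference between times had 3 calls (5 reported) with the legacy form and with DESeq2.

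Leaving out 1 library gave 0 to 1 calls for cGAS-KO against WT at 14 days and 0 at 7 days, 5 to 17 for STING-KO against WT at 14 days and 3 at 7 days, 5 to 17 and 0 to 1 for cGAS-KO against STING-KO at 14 and 7 days, 8 to 17 for 14 against 7 days in cGAS-KO, 5 to 14 in STING-KO and 4 to 10 in WT, and 1 to 5 and 2 to 10 for the change between times of cGAS-KO and STING-KO. A lone library was assumed to vary like the other groups. Without 14-day cGAS-KO replicate 1, mt-Atp8 turned to -1.06 (cGAS-KO against WT; up to 4.53 without another library), -0.28 (cGAS-KO against STING-KO; up to 6.77) and -0.36 (14 against 7 days; up to 5.23), and mt-Atp6 to -0.22 (cGAS-KO against WT; up to 1.89). Without 14-day cGAS-KO replicate 2, mt-Nd3 turned to 0.34 (cGAS-KO against WT), against -1.41 at the lowest. Without 14-day STING-KO replicate 2, mt-Te and mt-Nd6 turned to -0.29 and -0.92 (14 against 7 days in STING-KO), against 2.84 and 1.78 at the highest. The cause was not tested in any of these cases, other than the smaller number of libraries.

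The labels do not say whether replicate numbers pair libraries across groups. Deviations of same-numbered libraries correlated by -0.09 to 0.20 over 15 pairs of groups, 2 of them above 0.1. Such correlations cannot show whether the libraries were paired. With the replicate block, mt-Co3 in cGAS-KO against WT at 14 days had an adjusted p of 0.0304 and mt-Rnr2 in STING-KO against WT at 7 days 0.0449, and the call of mt-Nd6 in WT, 14 against 7 days, was lost (0.0511). Scaling without mitochondrial genes moved the median of all genes by -0.13 in cGAS-KO against WT at 7 days, -0.12 in STING-KO against WT at 7 days and -0.11 in 14 against 7 days in WT. With 2 libraries a group, small changes were not detectable, and the 7 members that did not pass the filter were not tested.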

Other observations

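mt-Nd6, the 1 mRNA encoded on the other strand from the rest, gave 4.51 and 2.80% of the mitochondrial mRNA counts in 14-day cGAS-KO libraries, 1.69 and 5.66% in 14-day STING-KO libraries and 4.88 and 4.51% in 14-day WT libraries. At 7 days the shares were 3.39 and 3.10%, 3.48 and 2.98%, and 2.74 and 2.88% in cGAS-KO, STING-KO and WT libraries. The 14-day STING-KO libraries held both the lowest and the highest of the 12 shares. The strand setting of the counting is not given in the sources used here, so these shares may include reads from the opposite strand, which was not tested.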
